A study of Mus musculus with 3 samples.

Results

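The 30 genes described here are interferon response genes of the mouse: 4 sensors of nucleic acid or relatives of such sensors (Ifih1, Ddx58, Zbp1, Ifi204), 4 transcription factors (Irf1, Irf7, Irf9, Stat2), 16 effectors (Ifit1, Ifit2, Ifit3, Isg15, Isg20, Mx1, Oasl1, Oasl2, Oas1a, Rsad2, Cmpk2, Ifitm3, Bst2, Rtp4, Ifi44, Xaf1), 1 inhibitor (Usp18), 3 GTPases (Gbp2, Ifi47, Irgm1) and 2 Schlafen genes (Slfn4, Slfn5). They were taken from a list of gene names with no threshold on measured values, though with earlier results of these data known, and all 30 were present among the 24353 gene columns common to the deposited tables. The study sequenced single leukocytes selected for CD45 from mouse hearts infarcted by permanent ligation of a coronary artery. The mice were F7fl/fl CX3CR1Cre animals, in which Cre expressed from the Cx3cr1 locus acts on a loxP-flanked gene for coagulation factor VII, and F7fl/fl WT animals, which the labels name with the floxed gene and without a Cre. Hearts were taken at several times after ligation. Cells of different animals carried sample tags and were pooled into libraries, 3 in all; each of the 18 tags marks a biological replicate, and libraries 1, 2 and 3 hold 7, 5 and 6 of them. The labels give neither genotype nor time for a single tag, so genotypes and times were not compared, and the tests below compare cell classes, or groups of macrophages, within the same tags. Levels and shares are also described over all tags that held enough cells of a class, which differ between classes.

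Interferons are secreted proteins by which a cell warns its neighbours of viral or misplaced nucleic acid. Type I interferons bind the Ifnar1 and Ifnar2 receptor, activate the kinases Jak1 and Tyk2, and lead Stat2 and Irf9 to join a complex that binds the interferon-stimulated response element of its target genes. Interferon gamma acts through another receptor. In the infarcted heart, DNA of dying cells taken up by macrophages is a known trigger of the type I response, and interferon-responding macrophages, monocytes and neutrophils have been described in that tissue.

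Cells were placed in classes by a fixed sequence of gates that used no interferon response gene, and the first gate met decided. A cell with at least 2 molecules of the Cd3 genes was a T cell, and one with at least 2 of Cd79a a B cell. A neutrophil had at least 1% of its molecules from S100a8 and S100a9 and at least 1 of Csf3r, and a macrophage at least 0.1% from the C1q genes. A dendritic cell (DC) had at least 1 molecule of Flt3 and a monocyte at least 2 of Ly6c2. Of 25762 cells, 25640 had at least 200 genes and were kept: 15023 macrophages, 2427 monocytes, 1371 DCs, 1225 T cells, 779 B cells, 488 neutrophils and 4327 cells that met no gate. The libraries held 349827525, 88848415 and 93681505 molecules. The median cell had 20575 molecules among macrophages, 12701 among monocytes and 3997 among neutrophils. Each class was highest for its own marker list, but macrophage markers were also high in the lymphocyte gates: their summed level, in molecules per 1000000 molecules of the class in a tag (CPM), had a median over tags of 14000 in macrophages, 9202 in B cells, 8472 in T cells, 4544 in monocytes, 1794 in DCs and 1523 in neutrophils. Of the T cells, 77.5% also met another gate, against 65.7% of B cells, 28.7% of DCs, 18.4% of neutrophils and 15.8% of macrophages. Lymphocyte values without such cells are given below for the T cell comparison and for the shares of interferon-rich cells. The levels and gene orders of lymphocytes include such cells.

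The response element named above was looked for in the 250 bases before each gene's start in RefSeq's promoter sequences (build GRCm38.p6). The motif searched was GAAA, any 2 bases, GAAA, on either strand. Of the 30 members, 25 had an entry, and Zbp1, Ifi204, Mx1, Rtp4 and Usp18 had none. The motif was present for 10 of the 25 (40%), against 936 of 27025 genes in the whole table (3.46%). These were Stat2, Ifit1, Ifit3, Isg15, Oas1a, Rsad2, Bst2, Gbp2, Irgm1 and Slfn5. A second motif, TTCNNNGAA, which reads the same on both strands and resembles the element through which interferon gamma acts, was present for 5 of the 25 (20%), against 8.13% of all genes. Slfn4, Isg20, Oasl1, Oasl2, Ifi44 and Ifi47 had an entry and no match of the first motif. They are among the members with the largest differences below, and Isg20 had a match of the second motif. The 7 stretches below come from members with a match of the first motif, 4 effectors and 3 others. They show the match nearest the start, read 5′ to 3′ on the gene's strand, with matches in capitals. A match is a run of letters and was not tested for binding.
Isg15, chr4:156200855-156200904, minus strand: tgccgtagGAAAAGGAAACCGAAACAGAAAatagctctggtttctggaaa
Ifit1, chr19:34640784-34640833, plus strand: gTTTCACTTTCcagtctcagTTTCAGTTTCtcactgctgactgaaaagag
Ifit3, chr19:34583387-34583436, plus strand: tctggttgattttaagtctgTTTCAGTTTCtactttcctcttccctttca
Rsad2, chr12:26456543-26456592, minus strand: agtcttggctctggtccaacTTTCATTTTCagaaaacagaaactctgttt
Stat2, chr10:128270256-128270305, plus strand: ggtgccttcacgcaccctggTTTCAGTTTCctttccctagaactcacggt
Gbp2, chr3:142620584-142620633, plus strand: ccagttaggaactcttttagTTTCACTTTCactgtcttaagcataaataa
Irgm1, chr11:48871421-48871464, minus strand: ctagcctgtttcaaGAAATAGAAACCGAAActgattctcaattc

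The Isg15 stretch held 3 overlapping matches and the Irgm1 stretch 2, each in 1 run of capitals. The nearest match began 24 bases before the start for Irgm1, 59 for Gbp2, 66 for Isg15, 85 for Ifit1, 120 for Rsad2, 122 for Ifit3 and 222 for Stat2.

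The summed level of the members was highest in neutrophils, where Slfn4 alone gave nearly as many molecules as the other 29 members, and next in monocytes. Levels are CPM over tags with at least 20 cells of the class, and each molecule was counted once from its 3′ end, so gene length does not enter. The summed level of the 30 members ran from 6195 to 8978 in neutrophils (median 7309, 9 tags) and from 4119 to 12560 in monocytes (median 5549, 10 tags). It ran from 2186 to 4262 in DCs (median 3020, 16 tags) and from 2007 to 3994 in macrophages (median 2828, 18 tags). B cells and T cells had medians of 2599 and 2596 (18 tags each), with ranges of 1645 to 3614 and 1470 to 3213. The ranges of neutrophils and monocytes overlapped each other, and those of the other 4 classes overlapped throughout. Neutrophils lay above all tags of those 4 classes, and monocytes reached down to 4119, below the highest DC tag. That place of neutrophils rested on Slfn4. Without it, in a sum of 29 members taken after the data were seen, neutrophils ran from 3138 to 4636 (median 3691), overlapping DCs (2159 to 4200, median 2953) and macrophages (1968 to 3838, median 2710), and lay below the monocyte median of 5017 (3716 to 10510). In the 6 tags with both classes, neutrophils and monocytes had medians of 7230 and 4512 for all members, and of 3656 and 4194 without Slfn4.

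**Figure D1:**
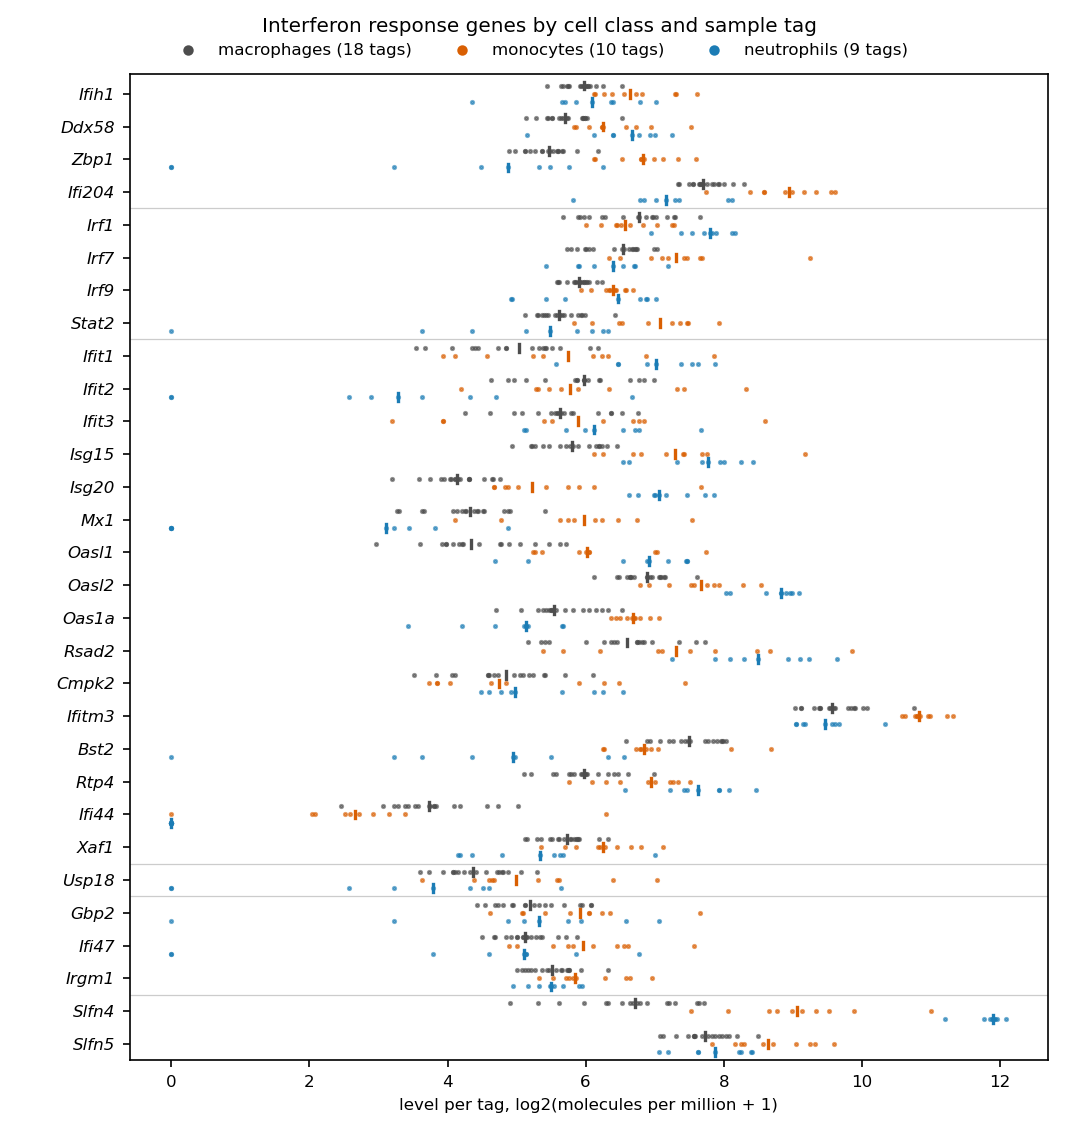
Level of each of the 30 members (rows, grouped by role) in macrophages, monocytes and neutrophils, as log2(CPM + 1), with 1 point per sample tag and a bar at the median over tags. Slfn4 in neutrophils has the highest of the plotted medians, and all neutrophil points of Ifi44 are at 0.

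By median level, 13 members were highest in neutrophils, 13 in monocytes, 3 in macrophages (Ifit2, Bst2, Ifi44) and 1 in T cells (Ifi47). The classes were measured in different numbers of tags. In the 6 tags with both neutrophils and monocytes the order of these 2 classes turned for 2 members: Irf9 had medians of 69.4 CPM in neutrophils and 82.5 in monocytes, and Gbp2 had 46.7 and 37.2. Which gene led differed between neutrophils and the other classes. Slfn4, a Schlafen gene of myeloid cells, made up 49.9% of all member molecules in neutrophils, followed by the membrane protein Ifitm3 (9.95%), Oasl2 (5.62%) and Rsad2 (5.14%). Ifitm3, which blocks the fusion of viral and endosomal membranes, came first in each of the other 5 classes, with 28.1% in macrophages, 32.0% in monocytes, 38.6% in DCs, 23.8% in T cells and 29.9% in B cells. Slfn5 was second in macrophages (8.21%), DCs (9.68%), T cells (6.43%) and B cells (7.26%). The part of macrophage molecules in the T and B cell orders was not tested, and 77.5% and 65.7% of these cells also met another gate. In monocytes Slfn4 was second (9.75%), ahead of Ifi204 (9.24%) and Slfn5 (8.50%). After Slfn5, macrophage molecules came most often from Ifi204 (7.71%), Bst2 (5.77%) and Slfn4 (4.33%). At the low end, Ifi44 was last of the 30 in T cells, at 0.497%.

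Monocytes were compared with the macrophages of the same 10 tags, of which library 1 gave 7. Of 30 members, 25 were higher in monocytes, none was lower and 5 were not called by edgeR's quasi-likelihood test at an adjusted p of 0.05; of all genes tested, 31.4% were called higher and 32.4% lower. At an unadjusted p of 0.05 edgeR placed 0 members lower, and DESeq2 called 0. The median difference was 0.81 (log2) over the members and -0.02 over all genes. p-values here weigh the difference between classes within a tag against how that difference varies from tag to tag.

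Slfn4 differed most. Its level ran from 184 to 2054 CPM in monocytes (median 532) and from 79.3 to 208 in macrophages (median 145). Monocytes were higher in 10 of 10 tags, with overlapping ranges, by 2.09 ± 0.29 (log2, SE; edgeR adjusted p = 1.93e-05). Isg20, an exonuclease that degrades RNA, was the 1 member whose ranges did not overlap. It ran from 24.4 to 203 CPM in monocytes (median 36.7) and from 8.20 to 23.9 in macrophages (median 16.3), a difference of 1.67 ± 0.21 (edgeR adjusted p = 5.64e-06). Here and below, the share of all genes whose ranges did not overlap was not computed.

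Mx1 is a dynamin-like GTPase that blocks viral ribonucleoproteins. It ran from 16.2 to 185 CPM in monocytes (median 62.5) and from 8.60 to 41.7 in macrophages (median 20.2), and differed by 1.57 ± 0.22 (edgeR adjusted p = 1.49e-05). Isg15, a ubiquitin-like protein that is attached to other proteins, ran from 68.5 to 580 CPM against 29.4 to 86.3, and differed by 1.54 ± 0.18 (edgeR adjusted p = 3.57e-06). Both were higher in all 10 tags although the ranges overlapped. Zbp1, which senses Z-form nucleic acid, had a median of 112 CPM against 47.1 and differed by 1.37 ± 0.09 (edgeR adjusted p = 9.73e-09). Oasl1, an oligoadenylate synthetase-like protein that restrains translation of Irf7, had a median of 64.1 against 30.4 CPM and differed by 1.29 ± 0.26, with 9 of 10 tags higher (edgeR adjusted p = 0.000477).

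By role, all 4 sensors, all 4 transcription factors, 11 of 16 effectors, the inhibitor Usp18, all 3 GTPases and both Schlafen genes were higher in monocytes. Stat2, a subunit of the complex that binds the response element, differed by 1.26, and Irf7, which amplifies transcription of type I interferon genes, by 1.07. Irf9, the DNA-binding partner of Stat2, differed by 0.59 and Irf1 by 0.47. The 5 members not called were effectors. Ifit2, which binds viral RNA, had medians of 53.7 CPM in monocytes and 57.7 in macrophages and a fitted difference of 0.48 (edgeR adjusted p = 0.0954). Ifit3 differed by 0.56, and Cmpk2, a mitochondrial nucleotide kinase, by 0.47. Bst2, which tethers budding virus to the cell, differed by -0.16, and Ifi44 by -0.49. In library 1 alone, an alternative chosen after the data were seen, Bst2 differed by -0.29 and Ifi44 by -0.85. That setting called 2 members lower, as did leaving out library 2.

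**Figure D2:**
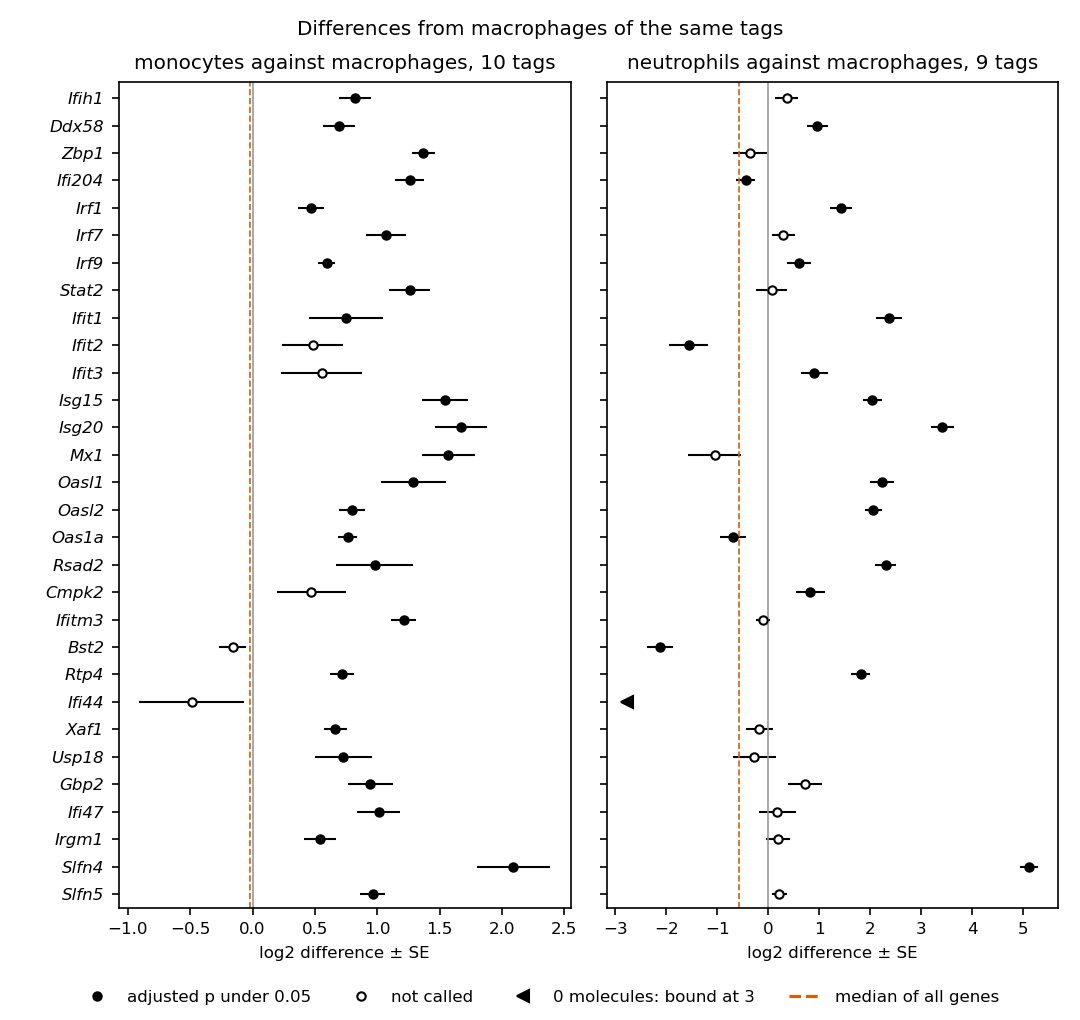
Log2 difference from macrophages of the same tags (x axis, ± SE) for each member (rows), in monocytes (left, 10 tags) and neutrophils (right, 9 tags), with filled points for an adjusted p under 0.05 and a dashed line at the median of all genes. In monocytes 28 of the 30 points lie above 0, and in neutrophils they run from a bound of -2.76 for Ifi44 to 5.11 for Slfn4.

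Neutrophils were compared with macrophages of the same 9 tags, 5 from library 1, 1 from library 2 and 3 from library 3. This comparison shares its macrophages in part with the one above. Of 30 members, 13 were higher in neutrophils (background 19.8% of all genes), 5 were lower (background 39.9%) and 12 were not called. The median difference was 0.33 over the members and -0.58 over all genes. DESeq2's size factors moved the median of all genes by -0.17, and under them Irf9 lost its call (0.45, edgeR adjusted p = 0.0922), Mx1 was called lower (-1.21, edgeR adjusted p = 0.039) and Stat2, not called either way, changed sign from 0.06 to -0.10. The directions of the other members were as with the main scaling.

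Slfn4 ran from 2364 to 4343 CPM in neutrophils (median 3828) and from 62.0 to 208 in macrophages (median 106). The groups lay far apart in all 9 tags, by 5.11 ± 0.17 or 34.5-fold (edgeR adjusted p = 7.57e-23). After each cell was thinned to 3000 molecules, 85.3% of neutrophils held a molecule of Slfn4, against 39.7% of monocytes, 18.1% of macrophages and 11.4% of T cells. Without thinning the shares were 89.3%, 62.3%, 43.5% and 26.4%.

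Isg20 ran from 97.6 to 232 CPM in neutrophils (median 133) and from 8.20 to 24.3 in macrophages (median 15.5), without overlap, and differed by 3.41 ± 0.22 (edgeR adjusted p = 4.15e-15). Ifit1, which binds viral RNA that lacks a host cap, ran from 46.4 to 234 CPM (median 128) against 11.8 to 48.6 (median 36.4). Its ranges overlapped slightly and 8 of 9 tags were higher, by 2.37 ± 0.26 (edgeR adjusted p = 1.8e-09). Rsad2, or viperin, which makes a chain-terminating nucleotide, ran from 151 to 796 CPM (median 361) against 41.3 to 124 (median 86.2), without overlap, and differed by 2.30 ± 0.20 (edgeR adjusted p = 9.3e-12). Oasl1 had a median of 119 CPM against 26.2 and differed by 2.23 ± 0.23 (edgeR adjusted p = 3.51e-10). Oasl2 ran from 260 to 546 CPM against 68.5 to 139 and differed by 2.06 ± 0.17 (edgeR adjusted p = 1.26e-12).

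Other effectors went the opposite way in the same cells. Ifi44 was at 0 molecules in all 9 neutrophil tags, while macrophages ran from 4.51 to 31.3 CPM (median 12.2). At a floor of 3 molecules over the 1765201 molecules of these neutrophils, Ifi44 was at least 6.79-fold lower than in macrophages. Bst2 ran from 0 to 92.9 CPM in neutrophils (median 29.9) and from 95.1 to 254 in macrophages (median 153), without overlap, and differed by -2.12 ± 0.26 (edgeR adjusted p = 1.32e-08). Ifit2 ran from 0 to 101 CPM (median 8.78) against 28.4 to 99.1 (median 57.4), lower in 8 of 9 tags, by -1.56 ± 0.38 (edgeR adjusted p = 0.000729). Ifit1 and Ifit2, close relatives on chromosome 19, thus lay on opposite sides of macrophages. The calls of Oas1a (-0.69, edgeR adjusted p = 0.0171) and of the DNA sensor relative Ifi204 (-0.44, edgeR adjusted p = 0.0365) were lost without library 1, where they stood at -0.98 and -0.25, and 3 members were then lower. Mx1 had a median of 7.59 CPM against 19.8 and was not called.

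Of the transcription factors, Irf1 rose by 1.42 and Irf9 by 0.61, while Irf7 (0.30) and Stat2 (0.06) were not called. Of the sensors, Ddx58, which encodes RIG-I, rose by 0.96. None of the 3 GTPases was called by edgeR; Gbp2 was higher at an unadjusted p of 0.05, and DESeq2 called 0. Neutrophils held fewer molecules per cell than macrophages. With every cell thinned to 3000 molecules, 14 members were higher and 5 lower, and Slfn4 differed by 4.59.

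Against monocytes of the same 6 tags, 5 of them from library 1, 27 members could be tested in neutrophils: 12 were higher (background 27.6%), 5 lower (background 29.3%) and 10 not called. Mx1, Ifi44 and Usp18 fell under the filter on low counts. The median difference was 0.21 over the members tested and -0.08 over all genes. Slfn4 ran from 184 to 559 CPM in these monocytes (median 418) against 2364 to 4343 in the neutrophils, a difference of 3.48 ± 0.23 (edgeR adjusted p = 3.7e-09). Ifit1 differed by 2.52 ± 0.25, Isg20 by 2.44 ± 0.25, Rsad2 by 2.41 ± 0.22, Irf1 by 1.65 ± 0.17 and Oasl1 by 1.55 ± 0.26. The ranges of Slfn4, Ifit1, Isg20, Rsad2 and Irf1 did not overlap, and those of Oasl1 did.

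Ifitm3, the leading member of monocytes, ran from 1529 to 1838 CPM there and from 528 to 778 in neutrophils, a difference of -1.19 ± 0.14 (edgeR adjusted p = 2.08e-06). Bst2 differed by -1.83, Zbp1 by -1.47, Ifi204 by -1.46 and Oas1a by -1.09. Zbp1 and Ifi204 were lower in 6 of 6 tags with overlapping ranges, and Bst2 and Oas1a did not overlap. Ifi44 was at least 2.95-fold lower by the same floor of 3 molecules over the neutrophils.

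DCs were compared with macrophages of 16 tags. Of 30 members, 6 were higher (background 28.4%), 11 were lower (background 35.4%) and 13 were not called, and the median difference was -0.19 against -0.08 over all genes. The counts stand near the background in both directions. Isg20 had a median of 34.7 CPM in DCs against 16.9 and differed by 1.09 ± 0.14 (edgeR adjusted p = 3.3e-07). Stat2 ran from 55.4 to 176 CPM (median 105) against 38.1 to 85.3 (median 49.0), higher in 16 of 16 tags, by 1.00 ± 0.10 (edgeR adjusted p = 6.09e-09). Mx1 differed by 0.95, Isg15 by 0.53, Ifitm3 by 0.53 and Irf9 by 0.50.

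Effectors, 16 of the 30 members, made up 9 of the 11 members lower in DCs and 4 of the 6 higher. Cmpk2 ran from 0 to 34.6 CPM (median 12.1) against 10.5 to 67.9 (median 31.0), lower in 16 of 16 tags, by -1.42 ± 0.21 (edgeR adjusted p = 4.05e-06). Ifit3, a partner of Ifit1, differed by -1.02, Ifit2 and Ifi204 by -0.94 each, Rsad2 by -0.80 and Rtp4, a chaperone of receptors that also acts on viral replication, by -0.72. So Isg15 and Stat2 were higher in DCs while Ifit3, Cmpk2 and Rsad2 were lower. With cells that met a single gate, 6 members were higher and 13 lower.

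T cells were compared with macrophages of all 18 tags. Of 30 members, 8 were higher (background 33.8%), 10 were lower (background 31.6%) and 12 were not called, and the median difference was -0.11 against 0.01 over all genes. Isg20 ran from 22.5 to 119 CPM in T cells (median 39.4) against 8.20 to 26.0 (median 16.5), higher in 18 of 18 tags, by 1.34 ± 0.12 (edgeR adjusted p = 4.25e-10). Ifi47, an immunity-related GTPase of the interferon gamma programme, ran from 53.9 to 110 CPM (median 72.2) against 21.6 to 57.7 (median 33.7), higher in 18 of 18 tags, by 1.06 ± 0.08 (edgeR adjusted p = 1.68e-11). Both held in direction in each setting tried.

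The other higher calls were small: Zbp1 by 0.51, Irf1 by 0.34, Isg15 by 0.33, Mx1 by 0.27, Irf9 by 0.21 and Ddx58 by 0.19. They did not hold when cells meeting more than 1 gate were left out. In the 4 tags that then had enough T cells, 2 members were higher, and Zbp1, Irf1, Isg15 and Mx1 stood at -0.05, -0.03, -0.13 and -0.14. Leaving out library 1 or library 3 left 5 members higher. Of the members lower in T cells, Rsad2 differed by -0.74 ± 0.20, Ifit2 by -0.70 ± 0.13, Cmpk2 by -0.67 ± 0.21, Ifi204 by -0.65 ± 0.09, Oasl2 by -0.47 ± 0.09 and Slfn5 by -0.45 ± 0.08. Among cells meeting a single gate 14 members were lower.

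Within macrophages the members were spread unevenly over cells. Each cell with at least 3000 molecules was thinned to 3000, and the members with a molecule were counted among a core of 10 (Ifit1, Ifit2, Ifit3, Isg15, Rsad2, Cmpk2, Usp18, Oasl1, Irf7, Rtp4). Of 14705 macrophages, 58.5% held none and 22.3% held 1, while 42 cells (0.286%) held all 10. A cell with at least 4 is called interferon-rich here. That is a range of a continuous measure, not a cell type: 539 macrophages held 3 core members and 322 held 4. Of 2408 monocytes, 45.0% held none and 20 cells (0.831%) all 10, and of 387 neutrophils 43.7% held none.

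**Figure D3:**
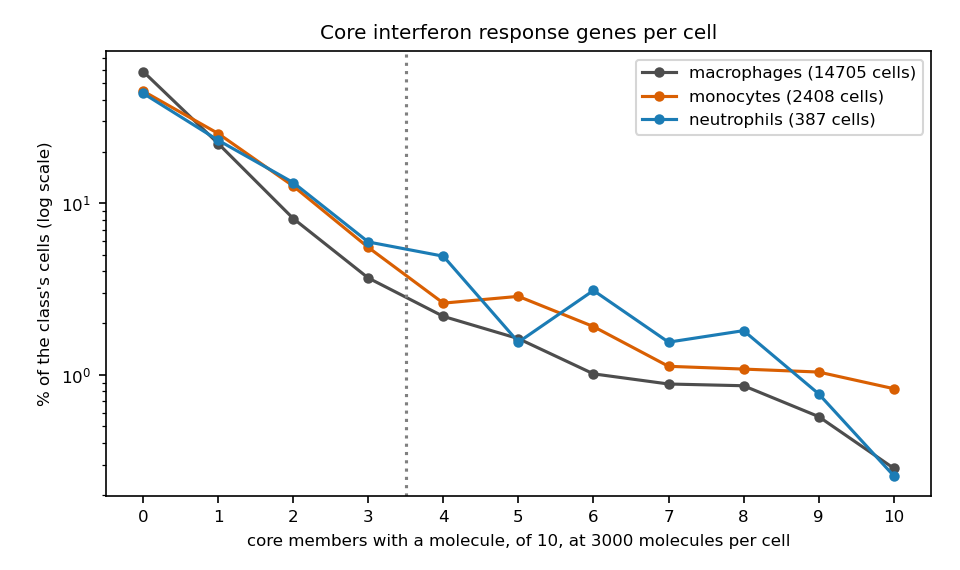
Share of macrophages, monocytes and neutrophils (y axis, log scale, % of the class) by the number of core members with a molecule after thinning to 3000 molecules (x axis), with a dotted line at the lower bound of interferon-rich cells. The shares fall without a gap across the line, from 58.5% of macrophages with none to 0.286% with all 10.

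Interferon-rich cells made up 1093 of 14705 macrophages, or 7.43% (95% Clopper-Pearson interval 7.01 to 7.87%, counting error only). In library 1 the 7 tags held 13.9%, 10.9%, 8.85%, 8.01%, 7.02%, 5.22% and 3.25%. In library 2 the 5 tags held 7.69%, 7.21%, 7.11%, 4.10% and 1.69%, and in library 3 the 6 tags held 9.19%, 9.05%, 8.75%, 5.75%, 5.15% and 4.88%. The pooled shares were 8.07%, 5.97% and 7.204% in the 3 libraries. Single tags spread over 4-fold within libraries 1 and 2, and less within library 3. Pooled shares average over tags and so vary less than single tags. The spread between libraries was therefore not compared with that within them.

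Among monocytes 276 of 2408 cells were interferon-rich, or 11.5%, with a tag median of 9.61% against 7.16% in macrophages. The share was higher in monocytes in 8 of 10 tags, and the difference was not tested. Taken in the order of the macrophage shares, the 7 tags of library 1 held 20.5%, 16.3%, 11.3%, 9.92%, 9.30%, 5.09% and 4.68% among monocytes, the same order. Summed macrophage markers in those monocytes stood at 4671, 4417, 4712, 4770, 5937, 3847 and 4183 CPM in that order of tags, with the 2 lowest sums in the 2 tags with the lowest monocyte shares. The part of such molecules in this order was not tested. Library 2 had 27.5% and 9.09% in the 2 tags with enough monocytes, and library 3 had 4.55% in 1 tag. What differed between the tags, genotype and time included, cannot be told apart here.

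Tag medians were 11.8% in neutrophils (7 tags, 7.69 to 26.1%), 5.53% in T cells, 5.29% in DCs and 4.0% in B cells. Among cells that met a single gate they were 2.86% in T cells (3 tags), 3.66% in DCs (13 tags) and 2.38% in B cells (2 tags). The neutrophil share rests on the 387 cells with at least 3000 molecules, and 101 shallower neutrophils were left out, against 318 of 15023 macrophages.

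**Figure D4:**
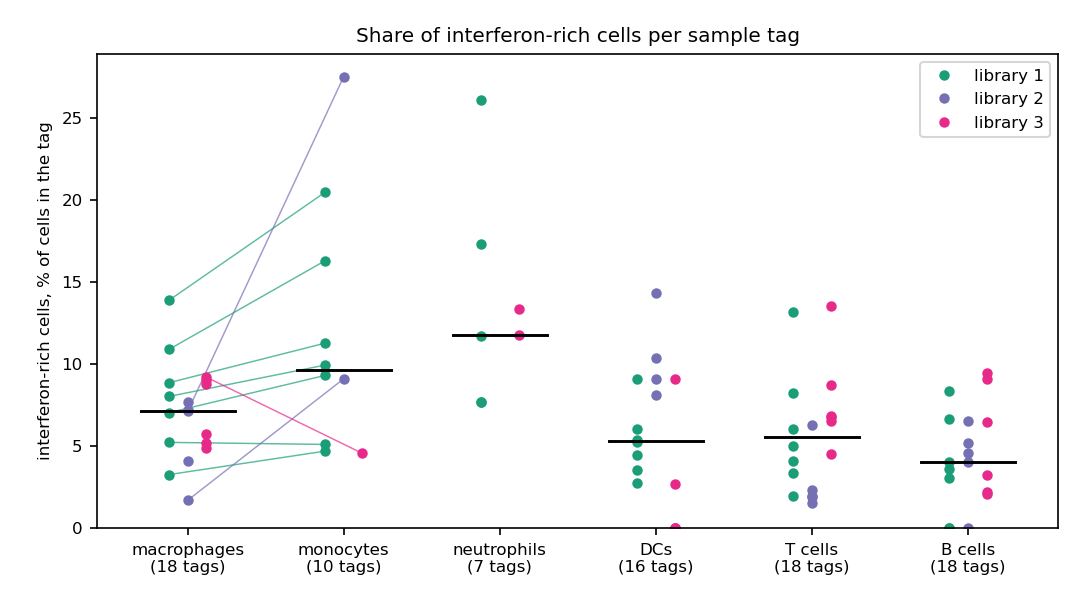
Interferon-rich cells as % of the cells of a class in each sample tag (y axis), coloured by library, with a bar at the median over tags and lines joining macrophages and monocytes of the same tag. The tags of library 1 keep their order from macrophages (3.25 to 13.9%) to monocytes (4.68 to 20.5%).

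Interferon-rich macrophages carried 31.1% of the member molecules of macrophages in 7.02% of all their molecules. The summed level of the members, pooled over cells, was 12790 CPM in them and 2139 CPM in the other macrophages. Median depth was 19220 and 21160 molecules. The 10 core members set this division and are not tested in it. They are counted in the share and the summed levels above, so part of that excess follows from the cut itself. Of the other 20 members, 20 were higher in interferon-rich macrophages in 16 tags (background 13.2% of all genes), and 0 were lower (background 13.9%), by edgeR; 0 were lower at an unadjusted p of 0.05, and 0 by DESeq2. The median difference was 2.78 over these members and -0.04 over all genes.

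Mx1 ran from 105 to 252 CPM in interferon-rich macrophages (median 186) and from 4.03 to 13.4 in the others (median 6.87). The groups lay wholly apart and differed by 4.70 ± 0.11 or 26.0-fold (edgeR adjusted p = 1.59e-20). Ifi44 ran from 36.7 to 190 CPM against 3.37 to 15.1 and differed by 4.02 ± 0.17 (edgeR adjusted p = 1.62e-15). Ifi47 ran from 200 to 397 CPM against 12.8 to 25.4 and differed by 3.74 ± 0.07 (edgeR adjusted p = 1.23e-21). Isg20 had a median of 113 CPM against 9.88 and differed by 3.66 ± 0.09 (edgeR adjusted p = 1e-19). Gbp2, a guanylate-binding protein that coats intracellular pathogens, had a median of 205 CPM against 24.8 and differed by 3.38 ± 0.12 (edgeR adjusted p = 3.42e-17). Zbp1 had a median of 222 CPM against 29.4 and differed by 2.93 ± 0.09 (edgeR adjusted p = 4.8e-18).

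The members were not raised alike. All 4 sensors rose by 2.62 to 2.93 and Stat2 by 2.74. The factors Irf9 and Irf1 rose least, by 1.04 and 0.76, and Irf1 was higher in 13 of 16 tags, with 83.2 to 315 CPM against 47.6 to 154. Ifitm3, the most abundant member, rose by 1.33 and Bst2 by 1.55. Members outside the core with the response element motif rose by 1.55 to 3.38 (Stat2, Oas1a, Bst2, Gbp2, Irgm1, Slfn5), and those with an entry but no match by 0.76 to 4.02. The ranges overlap.

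**Figure D5:**
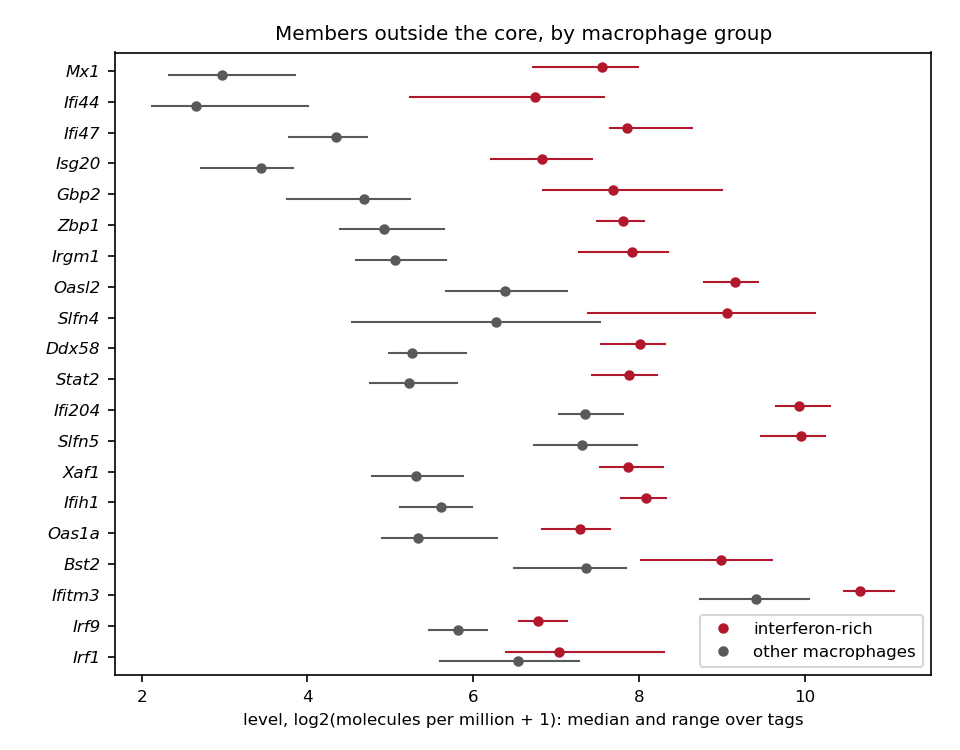
Level of the 20 members outside the core as log2(CPM + 1) (x axis) in interferon-rich and other macrophages, with a point at the median and a line over the range of 16 tags, ordered by their difference. Mx1 at the top has median levels of 186 and 6.87 CPM, and Irf1 at the bottom has overlapping ranges.

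Markers of macrophages, monocytes and other cells moved with this division. The macrophage marker sum had a median of 18560 CPM in interferon-rich macrophages (8781 to 24140) and 13710 in the others (9358 to 22380). The monocyte marker sum was 898.5 against 788.4 CPM. Endothelial markers summed to 39.3 CPM (24.5 to 58.1) against 18.7 (9.01 to 35.8), with Cdh5 and Kdr higher, and erythroid markers to 5.68 CPM (0 to 19.1) against 10.6 (0 to 142), with both genes lower. The plasmacytoid DC sum was 301.5 against 216.9 CPM. Of the interferon-rich macrophages 29.6% met more than 1 gate, against 14.99% of the others. Their part in the member differences was not tested.

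The comparison of monocytes with macrophages was repeated in a setting chosen after the data were seen. Interferon-rich cells, and all cells too shallow to be thinned, were removed from both classes. Of the 20 members outside the core, 18 were higher in monocytes with those cells removed (background 29.2%) and 18 with all cells, and the median difference was 0.65 against 0.88. Zbp1 stood at 1.28 without those cells, Isg20 at 1.35 and Slfn4 at 1.72. Bst2 (-0.39) and Ifi44 (-1.08) were then lower (background 33.5%). For neutrophils, in 6 tags, 6 of the 20 members were higher (background 16.8%) and 4 lower (background 31.2%). With all cells in 9 tags they were also 6 and 4, but not all the same members. Gbp2 gained a call (1.30, from 0.72) and Irf9 lost it (0.63). Mx1, not called either way, stood at 0.70, from -1.05. Slfn4 stood at 4.84 and Isg20 at 3.74. Over all tags, the cells too shallow to be thinned were 101 of 488 neutrophils, 318 of 15023 macrophages and 19 of 2427 monocytes. Their part in these shifts was not tested apart from that of interferon-rich cells.

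Across single macrophages the members went together to different degrees. On log2(1 + molecules per 10000) after thinning, Pearson's r between Ifit2 and Ifit3 had a median of 0.62 over 18 tags (0.36 to 0.81), and Ifit2 with Rsad2 and Ifit3 with Rsad2 both had 0.56. These are sparse counts of cells sharing a library, given as a description. The median r with the other 29 members was highest for Ifit2 (0.32), Ifit3 (0.32) and Isg15 (0.28), and lowest for Irf9 (0.07) and Irf1 (0.05). Irf1 and Irf9 were thus the members least tied to the rest in both views.

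Of the interferons themselves, 10 ligand genes were looked for, and 5 had a gene column. Ifna1, Ifna4, Ifna5, Ifne and Ifnl3 had none and so were not measured. In tags with at least 20 cells of a class, Ifna2 gave 2 molecules, in macrophages, and Ifnl2 gave 4, in DCs. Ifnk gave at most 7 in a class. Ifnb1, which encodes interferon beta, gave 249 molecules in 34 of 15023 macrophages, and 143 of these molecules lay in 1 cell of library 3. Of the 34 cells, 5 were interferon-rich. Ifng, which encodes interferon gamma, gave 799 molecules in 272 of 1225 T cells and 184 in 77 of 15023 macrophages, with median levels of 33.4 CPM in T cells and 0.505 in macrophages and a difference of 5.60 ± 0.36 (edgeR adjusted p = 2.02e-12). Cells with a molecule of Ifng were 22.2% of T cells, 2.33% of cells that met no gate and 1.93% of B cells. They were 1.32% of monocytes, 1.17% of DCs, 0.82% of neutrophils and 0.513% of macrophages.

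Receptor and signalling genes followed the division of macrophages in part. Of 12 tested in interferon-rich macrophages, 6 were higher (background 13.2% of all genes) and 1 lower (background 13.9%). The lower gene was Ifngr1, a chain of the gamma receptor (-0.32). The feedback inhibitor Socs1 rose by 1.88 and Jak2 by 0.58. In monocytes against macrophages 9 of 12 were higher (background 31.4%), led by Jak2 (1.39), Ifngr1 (0.99) and Ifnar2 (0.72), and 1 was lower (background 32.4%). In neutrophils against macrophages 6 were higher (background 19.8%) and 1 lower (background 39.9%), with Jak2 at 2.81, Ptpn2 at 1.14 and Tyk2 at -1.42. In DCs 7 were higher (background 28.4%) and 2 lower (background 35.4%), with Jak2 at 2.91. In T cells 7 were higher (background 33.8%) and 4 lower, near the background of 31.6%, with Jak2 at 1.45.

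Of 15 sensing genes tested, 11 were higher in interferon-rich macrophages (background 13.2%) and 0 were lower by edgeR (background 13.9%). Dhx58, a regulator of RIG-I-like receptors (2.36), the RNA receptor Tlr3 (2.27) and the RNA editor Adar (1.58) led. Ikbke was lower at an unadjusted edgeR p of 0.05 and by DESeq2. In neutrophils against macrophages 3 of 15 were higher and 7 lower, near the shares of all genes in that comparison (19.8% and 39.9%). The adaptor Mavs had 2 molecules in all neutrophils compared, against 20.5 CPM in the median macrophage tag, Tlr3 had 1 and Tlr9 had 0. At the floor of 3 molecules Tlr9 was at least 2.87-fold lower. In monocytes 8 were higher (background 31.4%) and 3 lower (background 32.4%), with Tlr9 (0.94) and Irf5 (0.81) higher and Tlr3 (-1.16) lower.

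All 4 genes of the pathway that attaches Isg15 to proteins were higher in interferon-rich macrophages (background 13.2%). The ligase Herc6 stood at 2.92, the conjugating enzyme Ube2l6 at 2.37 and the activating enzyme Uba7 at 1.81. The same 4 genes of the pathway were higher in monocytes than in macrophages (background 31.4%), by up to 0.61. In neutrophils, where Isg15 rose by 2.04, Ube2l6 differed by -1.63 and the other 3 were not called.

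Of 13 further genes listed as targets of interferon gamma, 12 were higher in interferon-rich macrophages (background 13.2%). Which interferon acted on these cells was not tested. Iigp1, an immunity-related GTPase, had a median of 70.7 CPM against 2.25 and rose by 5.14. The chemokine Cxcl10 had 792 against 29.4 CPM and rose by 4.79, and Gbp5 rose by 4.28. In T cells 7 of 13 were higher than in macrophages (background 33.8%), led by Gbp4 (3.99), Igtp (1.51) and Ciita (1.05), and 1 was lower (background 31.6%). In neutrophils 0 of 12 were higher and 4 lower by edgeR, where 39.9% of all genes were lower; 0 were higher at an unadjusted p of 0.05, and 0 by DESeq2. Monocytes had 10 of 13 higher (background 31.4%). DCs had 4 of 12 higher, near the background of 28.4%, and 6 lower (background 35.4%), with Ciita, which drives MHC class II genes, at 3.74.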

How the data were processed

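Molecule counts per gene and cell were deposited by the authors, per the file headers as BD Rhapsody output corrected for errors in molecular identifiers (pipeline versions 1.10 and 2.0b1; GRCm38, GENCODE M19); 1 table holds the cells of 1 sample tag. Counts of cells with at least 200 genes were summed per tag and class, for tags with at least 20 cells, and tested with edgeR 4.0.16 in R 4.3.3 (TMM factors, filterByExpr, quasi-likelihood F test, tag as block, Benjamini-Hochberg adjustment over all genes tested, threshold 0.05). CPM, medians and shares were computed from the same counts; no doublet caller was run. Within a library 0 cell indices were duplicated, and 7 index numbers of library 1 recurred in another library. Tag medians of molecules per cell ran from 11612 to 20282.

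The members and lists were chosen with earlier results of these data known. Full values are given for the called members with the largest absolute difference, up to 6 in each direction per comparison, and for those not called with the largest level in a class; for other lists, counts and up to 3 genes. The fits were tested on simulated data. Alternatives were DESeq2 1.42.0, its size factors, no filter, no tag block, at least 50 cells, cells of 1 gate and thinning. Others were C1q of at least 0.3%, other bounds for interferon-rich cells and each library left out. Single libraries and removal of interferon-rich cells were chosen after seeing the data. That removal also left out cells too shallow to be thinned. Promoters came from RefSeq's table; of 5 windows checked, 4 began a transcript of the annotation. Values of some single genes of the pathway and marker lists are not reported here.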

Additional observations from a re-analysis of the deposited data

Results flagged for a closer look

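The share of interferon-rich cells among T cells of 1 tag of library 2 (tag 2) was 6.25%, and the nearest of the 5 tags of that library held 2.3%. The gap took 0.838 of the range of the library, above the 0.71 of Dixon's test for 5 samples. Of 28 groups examined, this was the 1 that stood out, and chance alone gives about 1 in 20.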

How the results depend on the processing

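Over 58 named member results and 698 alternative values, 656 kept their direction and side of the threshold, 36 kept their direction and lost the call, and 6 changed sign. All 6 were in T cells against macrophages: Zbp1 (-0.05), Irf1 (-0.03), Isg15 (-0.13) and Mx1 (-0.14) with cells of 1 gate, Irf1 within library 2 (-0.17) and Mx1 after thinning (-0.10); the cause was not tested. Members higher in T cells went from 8 to 3 without a filter, 4 without the tag block, 2 with cells of 1 gate and 3 within library 2, and to between 5 and 6 with a library left out; members lower went from 10 to 6 within library 3. Members lower in monocytes than in macrophages went from 0 to 2 with at least 50 cells, 1 without a filter, 2 after thinning and 2 within library 1 (0 to 2 with a library left out); outside the core, removal of interferon-rich cells gave 2. In neutrophils against macrophages the 5 lower members became 3 with at least 50 cells and 3 within library 3 (3 to 5 with a library left out), and against monocytes the 5 became 11 without a filter and 8 with cells of 1 gate. The 11 members lower in DCs became 5 within library 2 and 7 within library 3, with fewer tags. The median share of interferon-rich macrophages (7.16%) was 10.5% at a bound of 3 core members, 3.52% at 6, 3.73% with cells thinned to 1500 molecules and 11.3% with 6000; for monocytes it was 18.1% with 6000. The tag pairs the classes, as a block in each fit; apart from the T cell count above, leaving the block out moved no count of called members by over 1.5 times. Neutrophils against monocytes could not be fitted without library 1, which left 1 tag, and library 2 gave them no tag to leave out. Shares of all genes called are given for the main fits and for removal of interferon-rich cells, and not for the other settings.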

Other observations

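F7, the gene the study deleted, had a median of 7.26 CPM in interferon-rich macrophages (0 to 65.7 over 16 tags) and 13.01 in the others (3.14 to 49.2), a difference of -0.41 that edgeR did not call (adjusted p = 0.132). F3, which encodes tissue factor, the partner of factor VII, was named after its values were seen: it had 1.42 CPM (0 to 115) against 10.1 (2.73 to 64.1) and differed by -2.03 (edgeR adjusted p = 0.000179).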
